A study of Mus musculus with 16 samples.

Results

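Axon guidance ligands and receptors were followed in cells sorted from the olfactory mucosa of the mouse. The genes are the class 3 to 6 semaphorins and their plexin and neuropilin receptors, the ephrins and Eph receptors, Slits and Robos, and netrins with Unc5 and Dcc. They were picked by gene symbol alone, 1 probe set per gene, with the semaphorin Sema7a left out, which gave 64 genes (32 ligands and 32 receptors) among 19505 named genes and 22206 tested probe sets. Signal levels played no part in the symbol rule. The genes were, however, chosen with earlier results of these data known, and values of Sema7a are not reported here. Family names that the symbol rule covers but no row matched, such as Nrp1, were not analysed here.

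Guidance ligands are secreted or membrane-bound proteins that attract or repel growing axons, and each binds a known receptor family: semaphorins bind plexins, often with a neuropilin, ephrins bind Eph receptors, Slits bind Robos, and netrins bind Dcc and Unc5 proteins. In the olfactory system they steer the axons of sensory neurons, which are renewed throughout life, to their glomeruli in the olfactory bulb. Sema3a with neuropilin and Plxna1, Sema3f with Nrp2, Slit1 with Robo2, and the ephrin-A ligands with Epha5 are the pairs best known for this, and the level of some of them is tied to the odorant receptor a neuron expresses and to its activity.

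The mice were of strain C57BL/6 and carried an S100a5-tauGFP reporter, in which GFP is made where S100a5, a calcium-binding protein gene of olfactory sensory neurons, is active. All 24 mice, of both sexes and 7 to 12 weeks old, were kept singly in chambers with clean air for 40 hours. From hour 26 on, pulses of 10 seconds came every 20 minutes, either filtered air (vehicle) or the fruity ester isoamyl acetate (odor). Each pool of 3 mice was sorted by fluorescence into 2 libraries, one titled GFP+ and the other GFP-. The 16 arrays thus form 4 groups of 4 over 8 pools, both titled sorts with vehicle and both with odor. Every group carries the reporter. Clariom S arrays gave 1 log2 signal per probe set and array. A difference of 1 on this scale is a factor of 2, and levels of different genes cannot be compared.

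Title and cell type field of the labels disagree on the GFP sign in all 16 samples. S100a5 itself was lower in titled GFP+, by -1.18 (SE 0.21) with vehicle and -1.25 (SE 0.21) with odor, in 8 of 8 pools. Sort differences below are titled GFP+ minus titled GFP-, and all would change sign if the cell type field is right. Array medians ran from 6.42 to 6.52 in titled GFP- and from 6.79 to 6.90 in titled GFP+, and the first principal component held 74% of the variance. Markers of other cells were higher in titled GFP+: 12 of 12 neutrophil, 10 of 10 microvillar, 7 of 7 progenitor and cell cycle, 9 of 12 sustentacular and 8 of 9 lymphocyte markers with vehicle. Among those counted, Chat, Neurog1, Cdk1 and Cd3g were not above the median negative control probe on any array, so their levels are bounds. Mature neuron markers fell in 2 of 20 cases and rose in 0 (median -0.17 with vehicle, -0.26 with odor). All bulk values below share 1 limit: fewer cells of a type and less RNA per cell cannot be told apart.

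A promoter stretch is shown for 4 genes on which the results turn: Sema3e and its receptor Plxnd1, whose sort differences have opposite signs, Sema3a, and Epha5. RefSeq's table for build GRCm38.p6 held windows for 54 of the 64 genes, 67 windows in all, and the 250 bases before the annotated start are used. Each is written 5′ to 3′ along the gene. They lie at chr5:14025026-14025275 (plus strand) for Sema3e, chr5:13396534-13396783 (plus strand) for Sema3a, chr5:84417383-84417632 (minus strand) for Epha5 and chr6:115995006-115995255 (minus strand) for Plxnd1. Capitals mark matches, on either strand, to the GC box GGGCGG, the CRE half-site TGACG, the Ebf core CCCNNGGG or the homeodomain core TAATTA.
Sema3e: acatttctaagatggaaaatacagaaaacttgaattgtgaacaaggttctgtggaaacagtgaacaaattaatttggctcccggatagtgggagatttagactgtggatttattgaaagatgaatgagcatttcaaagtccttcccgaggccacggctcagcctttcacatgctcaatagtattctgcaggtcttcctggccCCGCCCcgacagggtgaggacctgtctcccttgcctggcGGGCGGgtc
Sema3a: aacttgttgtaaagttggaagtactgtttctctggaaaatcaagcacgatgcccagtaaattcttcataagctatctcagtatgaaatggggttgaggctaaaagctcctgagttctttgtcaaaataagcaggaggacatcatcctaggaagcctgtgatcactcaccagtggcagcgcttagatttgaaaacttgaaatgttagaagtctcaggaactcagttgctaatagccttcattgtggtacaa
Epha5: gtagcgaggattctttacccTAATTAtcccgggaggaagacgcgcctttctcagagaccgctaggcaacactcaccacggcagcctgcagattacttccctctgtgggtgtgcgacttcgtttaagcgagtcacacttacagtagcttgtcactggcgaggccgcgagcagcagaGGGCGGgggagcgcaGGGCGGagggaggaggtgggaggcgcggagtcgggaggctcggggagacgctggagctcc
Plxnd1: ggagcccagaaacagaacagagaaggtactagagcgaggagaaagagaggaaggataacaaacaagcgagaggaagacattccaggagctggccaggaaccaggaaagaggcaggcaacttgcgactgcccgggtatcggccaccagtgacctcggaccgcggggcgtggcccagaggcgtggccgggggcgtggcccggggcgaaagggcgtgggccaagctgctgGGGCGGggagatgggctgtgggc
The Sema3e window holds 2 GC boxes, one of them on the other strand, the Epha5 window 2 GC boxes and 1 homeodomain core, and the Plxnd1 window 1 GC box. No match lies in the Sema3a window, whose GC content is 40.8% against 48% for Sema3e, 62.4% for Epha5 and 64.8% for Plxnd1. Over all 67 windows of guidance genes 70.1% held a GC box, 20.9% an Ebf core, 10.4% a CRE half-site and 4.48% a homeodomain core. Over the 32841 windows of all genes the shares were 32.7%, 11.8%, 17.8% and 4.84%. These matches describe the letters and are not shown to be bound sites.

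Of the 64 genes, 33 were above the median negative control probe on all 16 arrays, or 51.6% against 52.3% of all tested probe sets, 11 on some arrays and 20 on none. Above the 95th percentile of the negative controls, a stricter level, were 15 genes on all 16 arrays. Among them are the ligands Efna3, Efna5, Sema6a and Slit1 and the receptors Plxna1, Plxna3, Plxna4, Nrp2, Robo2, Epha7 and Unc5b. Dcc, the netrin receptor, and its ligand Ntn1 were not above the median control on any array, nor were Slit2, Robo3, Robo4 and Unc5c. Slit3 was above it on 8 of 16 arrays. The spread between replicate pools had a median SD of 0.28 over the 64 genes (0.12 for Efna5 to 0.52 for Efna2) and 0.26 over all probe sets.

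With vehicle, 5 of the 64 genes were higher and 6 lower in titled GFP+ at an adjusted p of 0.05 in limma, against 17.3% of all tested probe sets called (10.2% higher and 7.16% lower). The share of guidance genes called, 17.2%, was near that background. Lower were the ligands Sema3e, Sema6c and Sema6d and the receptors Epha5, Plxna3 and Plxnb3. Higher were the ligands Sema3a and Sema4g and the receptors Plxnd1, Ephb4 and Epha4, the last from signals below the negative controls. With odor, in other mice, 5 were higher and 8 lower (20.3% of 64, against 20.9% of all probe sets called, 11% higher and 9.86% lower). The lower ones were Sema3e, Sema6c, Sema6d, Slit1, Epha5, Plxnb1, Plxnb3 and Unc5a, and the higher ones Sema3a, Efnb2, Plxnd1, Plxnc1 and Epha4. The median difference of the 64 genes was -0.11 with vehicle and -0.04 with odor, beside -0.13 and -0.14 over all probe sets.

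**Figure D1:**
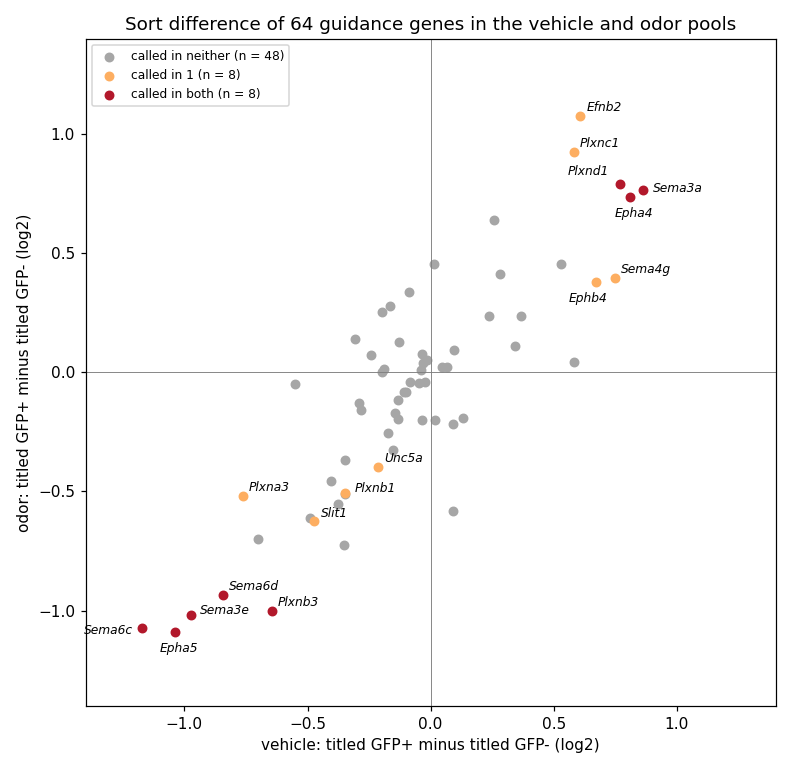
Sort difference (titled GFP+ minus titled GFP-, log2) of the 64 guidance genes, with vehicle on the x axis and odor on the y axis; each point is 1 gene, coloured by whether limma called it at adjusted p 0.05 in both exposures, in 1 or in neither. Sema6c, Epha5, Sema3e, Sema6d and Plxnb3 lie at the lower left and Sema3a, Plxnd1 and Epha4 at the upper right, called in both, and 48 genes called in neither lie between.

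The vehicle and odor pools share no mice, and 8 genes were called in both. Lower in both were 5 genes (7.81%, against 4.17% of all probe sets): Sema3e, Sema6c, Sema6d, Epha5 and Plxnb3. Higher in both were 3 genes (4.69%, against 9.22%): Sema3a, Plxnd1 and Epha4, the last not above the negative controls. The sign was the same in both exposures for 48 of 64 genes. Across genes the 2 differences had a Pearson r of 0.86 over the 64 genes and 0.96 over all 22206 probe sets, given as a description, since genes share the arrays. Counted pool by pool, 15 genes (23.4%, against 15.1% of all probe sets) were lower in titled GFP+ in 8 of 8 pools, and 5 (7.81%, against 11.9%) were higher in 8 of 8.

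These counts move with how the arrays are scaled. Centring each array on its own median shifts the median difference over all probe sets to -0.50 in both exposures. It gave 0 higher and 35 lower guidance genes with vehicle and 2 and 32 with odor, with 70.4% and 70% of all probe sets called and 11.3% and 12.1% of those calls higher, against 58.7% and 52.8% as deposited. Centring on the mature neuron markers shifts the median to 0.12 and 0.18, and gave 8 higher and 3 lower with vehicle and 11 and 4 with odor, with 15.7% and 19.6% of all probe sets called. Quantile normalization gave 3 higher and 10 lower with vehicle, where it called 23% of all probe sets (25.4% with odor). Without vehicle titled GFP- replicate 3 or 4 or vehicle titled GFP+ replicate 1 the vehicle count of higher genes was 3, and the odor count was 2 without odor titled GFP- replicate 3 and 3 without odor titled GFP+ replicate 2. Called under the deposited values and these 3 scalings were Sema3e, Sema6c and Epha5 with vehicle, and these 3, Plxnb3 and Plxnc1 with odor.

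Among the ligands, the class 3 semaphorins are secreted and split in direction here. Sema3e, a repellent that binds Plxnd1 directly, was lower in titled GFP+. With vehicle it read 10.85, 10.98, 11.22 and 11.20 in titled GFP- and 10.05, 9.82, 10.27 and 10.21 in titled GFP+ (pools 1 to 4 in order). With odor it read 11.28, 11.02, 11.05 and 11.11 in titled GFP- and 9.98, 10.01, 10.07 and 10.32 in titled GFP+. All 8 titled GFP+ libraries lay below all 8 titled GFP- libraries. The differences were -0.97 (SE 0.13, adjusted p = 3.64e-05) with vehicle and -1.02 (SE 0.13, adjusted p = 1.99e-05) with odor. Sema3e kept its call in each of 10 other settings and without any of the 16 libraries, in both exposures.

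Sema3a, the ligand best known for sorting olfactory axons before they reach the bulb, went the other way. Its signal with vehicle was 6.75, 7.39, 6.15 and 6.94 in titled GFP- and 7.56, 7.61, 7.78 and 7.75 in titled GFP+, which is higher by 0.86 (SE 0.22, adjusted p = 0.0118). The odor libraries read 6.91, 7.04, 6.18 and 6.81 in titled GFP- and 7.23, 7.74, 7.55 and 7.48 in titled GFP+, higher by 0.76 (adjusted p = 0.0223). The groups did not overlap in either exposure, and titled GFP+ was higher in 8 of 8 pools, by 0.21 to 1.62. Median centring left 0.49 (adjusted p = 0.064) and 0.40 (adjusted p = 0.125), and quantile normalization 0.55 and 0.46, so the sign held and the call did not. Without odor titled GFP- replicate 3 or odor titled GFP+ replicate 2 the odor call was lost (adjusted p up to 0.0807). Sema3f, the repellent that works through Nrp2, was not called: its vehicle mean was 9.74 ± 0.17 (SD, n = 4) in titled GFP- against 9.76 ± 0.18 in titled GFP+, and the 95% interval of the odor difference ran from -0.52 to 0.12.

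The class 6 semaphorins are membrane proteins that bind class A plexins, and Sema6c and Sema6d were lower in titled GFP+. Sema6c read 10.37, 9.77, 10.19 and 10.18 in titled GFP- with vehicle against 8.95, 8.72, 9.25 and 8.91 in titled GFP+, lower by -1.17 (SE 0.19, adjusted p = 0.000158). With odor it read 9.99, 9.85, 10.23 and 10.20 against 8.80, 8.55, 9.34 and 9.29, or -1.07 (adjusted p = 0.000361). The sorts did not overlap, and the call held in all 10 other settings and without any single library. Sema6d read 7.21, 6.87, 7.56 and 7.30 in titled GFP- with vehicle against 6.27, 6.09, 6.91 and 6.29 in titled GFP+, so pool 3 titled GFP+ overlapped pool 2 titled GFP-. Its differences were -0.84 (SE 0.22, adjusted p = 0.012) and, with odor, -0.93 (adjusted p = 0.00533), lower in 8 of 8 pools by -0.37 to -1.55. Centring on mature neuron markers left -0.60 (adjusted p = 0.151) and -0.61 (adjusted p = 0.118). Sema6a was not called, with vehicle means of 13.16 ± 0.28 in titled GFP- and 13.01 ± 0.20 in titled GFP+.

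Of the 5 class 4 semaphorins, which are membrane ligands of class B plexins, Sema4g was called. With vehicle it read 8.95, 9.45, 9.60 and 9.32 in titled GFP- and 10.15, 9.99, 10.23 and 9.94 in titled GFP+, without overlap. The difference was 0.75 (SE 0.21, adjusted p = 0.0211), and it lost its call without vehicle titled GFP- replicate 1, vehicle titled GFP+ replicate 1 or vehicle titled GFP+ replicate 3 (adjusted p up to 0.0758) and under median centring (0.38, adjusted p = 0.133). With odor the sorts overlapped at 9.22, 9.61, 9.19 and 8.76 against 8.98, 9.90, 9.92 and 9.55, and the difference of 0.40 was not called (adjusted p = 0.205). The test of the change between exposures gave -0.35 (95% interval -0.99 to 0.29). Sema4d, the ligand of Plxnb1, had differences of -0.38 and, with odor, -0.55, not called (adjusted p = 0.216 and 0.0576), and was called lower with odor once the pool was a block (adjusted p = 0.0273).

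Slit1, a secreted repellent read by Robo receptors, was lower with odor. It read 12.21, 12.38, 12.18 and 11.88 in titled GFP- with vehicle against 11.77, 11.93, 11.69 and 11.37 in titled GFP+, where the highest titled GFP+ value passed the lowest titled GFP- value. The vehicle difference of -0.47 (SE 0.16) did not pass (adjusted p = 0.0574), and passed with the pool as a block (adjusted p = 0.0187). With odor the values were 12.14, 12.29, 12.17 and 11.81 against 11.15, 11.59, 11.74 and 11.43, without overlap, a difference of -0.63 (adjusted p = 0.011). The 4 vehicle pools differed by -0.44 to -0.51 and the 4 odor pools by -0.39 to -0.98, so all 8 were lower. Under centring on mature neuron markers the odor difference was -0.30 and not called.

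**Figure D2:**
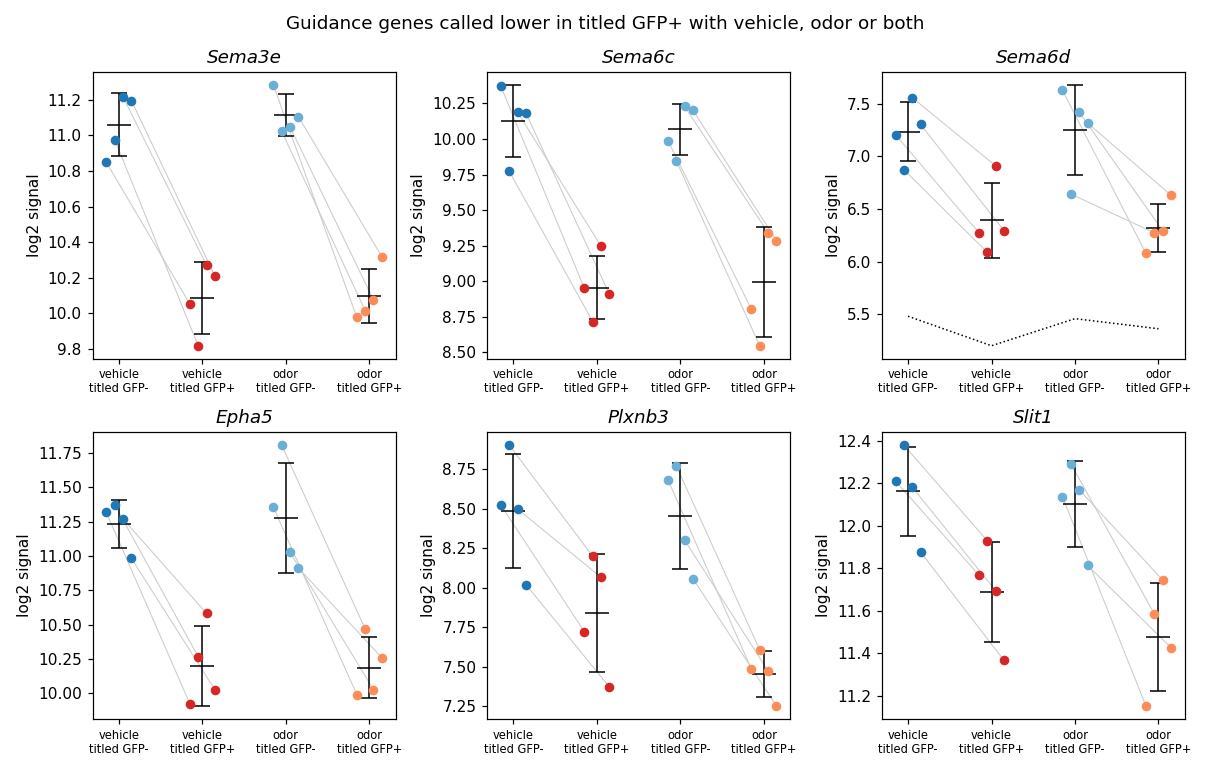
log2 signal of 6 guidance genes called lower in titled GFP+ with vehicle, odor or both (Sema3e, Sema6c, Sema6d, Epha5, Plxnb3, Slit1) in each of the 16 libraries; points are libraries, grey lines join the 2 libraries of a pool, bars show mean and SD of 4 pools, and the dotted line in the Sema6d panel is the median negative control. Every pool line falls from titled GFP- to titled GFP+, and the axes do not start at 0.

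Ephrins are membrane-bound and signal to cells in contact, and Efnb2 was the 1 ephrin called, with odor. It read 5.81, 5.53, 5.08 and 6.04 in odor titled GFP- and 7.51, 6.85, 6.44 and 5.98 in odor titled GFP+, so 3 pools were higher and pool 4 was not. The difference was 1.08 (SE 0.29, adjusted p = 0.0138). In titled GFP- 3 of 4 odor libraries and 2 of 4 vehicle libraries were above the negative controls. Without odor titled GFP- replicate 3 or odor titled GFP+ replicate 1 the call was lost (adjusted p up to 0.053), and after quantile normalization it was 0.79 (adjusted p = 0.0573). With vehicle the difference was 0.61 (adjusted p = 0.173), and the change between exposures, 0.47, had a 95% interval of -0.40 to 1.34.

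The ephrin-A ligands known from olfactory targeting did not pass on the deposited scale. Efna5 had vehicle means of 14.33 ± 0.11 (SD, n = 4) in titled GFP- against 14.30 ± 0.04 in titled GFP+, so it moved by -0.03 (95% interval -0.28 to 0.21). With odor it was 0.08 (95% interval -0.17 to 0.32), which median centring turned to -0.29 (adjusted p = 0.0437). Efna3 had differences of -0.02 (95% interval -0.30 to 0.25) and, with odor, -0.04 (95% interval -0.32 to 0.23). Median centring, which shifts all probe sets down, called Efna5 lower with vehicle (-0.40, adjusted p = 0.00946) and Efna3 lower in both exposures (-0.39, adjusted p = 0.02, and -0.41, adjusted p = 0.017).

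Epha5, an EphA receptor that binds these ligands, was lower in titled GFP+. The vehicle libraries read 11.32, 11.38, 11.27 and 10.98 in titled GFP- and 9.92, 10.27, 10.58 and 10.03 in titled GFP+, and the odor libraries 11.36, 11.81, 11.03 and 10.91 against 9.99, 10.47, 10.03 and 10.26. No titled GFP+ library reached any titled GFP- library. The differences were -1.04 (SE 0.19, adjusted p = 0.000815) and -1.09 (adjusted p = 0.00047), with pool differences from -0.65 to -1.39. The call held under all scalings and without any single library, and was lost in both exposures with pools 3 and 4 alone (adjusted p = 0.0647). Epha7, another EphA receptor, had the same difference of -0.70 in both exposures (SE 0.30, adjusted p = 0.123 and 0.109). Its libraries deviated together within pools, and with the pool as a block it was called lower in both (adjusted p = 0.00238 and 0.00218), lower in 8 of 8 pools by -0.43 to -1.09.

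Epha4 and Ephb4 lie near or under the negative controls. Epha4 was called higher in both exposures, yet its signal, 3.42 to 5.16, was not above the median negative control on any array, so its levels are bounds and no difference is given. With values raised to the control the differences were -0.26 and -0.09, that of the controls themselves. The calls were lost without vehicle titled GFP- replicate 3 or 4 or vehicle titled GFP+ replicate 2 or 4 (adjusted p up to 0.0888), and, with odor, without titled GFP- replicate 1, 3 or 4 or titled GFP+ replicate 1 or 2 (adjusted p up to 0.106). Ephb4, the receptor of Efnb2 and a marker of veins, was called with vehicle: 5.30, 5.47, 4.85 and 5.16 in titled GFP- (1 of 4 above the controls) against 6.12, 5.76, 6.02 and 5.56 in titled GFP+ (4 of 4 above). The difference was 0.67 (SE 0.19, adjusted p = 0.023), without overlap. The call was lost without vehicle titled GFP- replicate 3 or 4 or vehicle titled GFP+ replicate 1 or 3 (adjusted p up to 0.0807), and after quantile normalization (0.46, adjusted p = 0.105). Of 10 endothelial markers 0 were called with vehicle, and Cdh5, Kdr, Flt1, Tek, Emcn and Cldn5 were not above the controls on any array. Vwf was above them on 16 arrays, Esam on 10, Tie1 on 9 and Pecam1 on 6. The summed endothelial signal with vehicle was 7.997 to 8.18 in titled GFP- against 8.05 to 8.15 in titled GFP+ (log2). The part of endothelial cells in the Ephb4 call was not tested.

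Of the 9 plexins, the semaphorin receptors, 3 were called with vehicle (33.3%, against 17.3% of all probe sets) and 4 with odor (44.4%, against 20.9%), in both directions. In a family this small these shares are given as a description only. Plxnd1, the receptor of Sema3e, was higher in titled GFP+. It read 7.02, 6.64, 7.24 and 6.95 in titled GFP- with vehicle against 7.87, 7.65, 7.57 and 7.85 in titled GFP+, and with odor 7.23, 7.05, 6.67 and 6.34 against 7.80, 7.73, 7.31 and 7.61. All 8 pools were higher in titled GFP+, by 0.33 to 1.28, and the sorts did not overlap within an exposure. The differences were 0.77 (SE 0.19, adjusted p = 0.00697) and 0.79 (adjusted p = 0.00511). Median centring left 0.40 (adjusted p = 0.0645) and 0.43 (adjusted p = 0.0504), and quantile normalization 0.47 with vehicle (adjusted p = 0.0732). Of 10 other settings 7 kept the call with vehicle and 8 with odor (adjusted p up to 0.152 and 0.0918).

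Plxnc1, the receptor of Sema7a, was higher with odor. It read 8.69, 8.54, 8.76 and 8.23 in titled GFP- with odor against 9.91, 9.54, 9.17 and 9.30 in titled GFP+, without overlap, or 0.93 higher (SE 0.20, adjusted p = 0.00233). With vehicle it read 8.54, 8.49, 8.37 and 8.52 against 8.998, 9.60, 9.04 and 8.60, again without overlap, and 0.58 just missed the threshold (adjusted p = 0.0522), with a pool block giving 0.0439. The change between exposures was 0.35 (95% interval -0.24 to 0.93) and was not called.

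**Figure D3:**
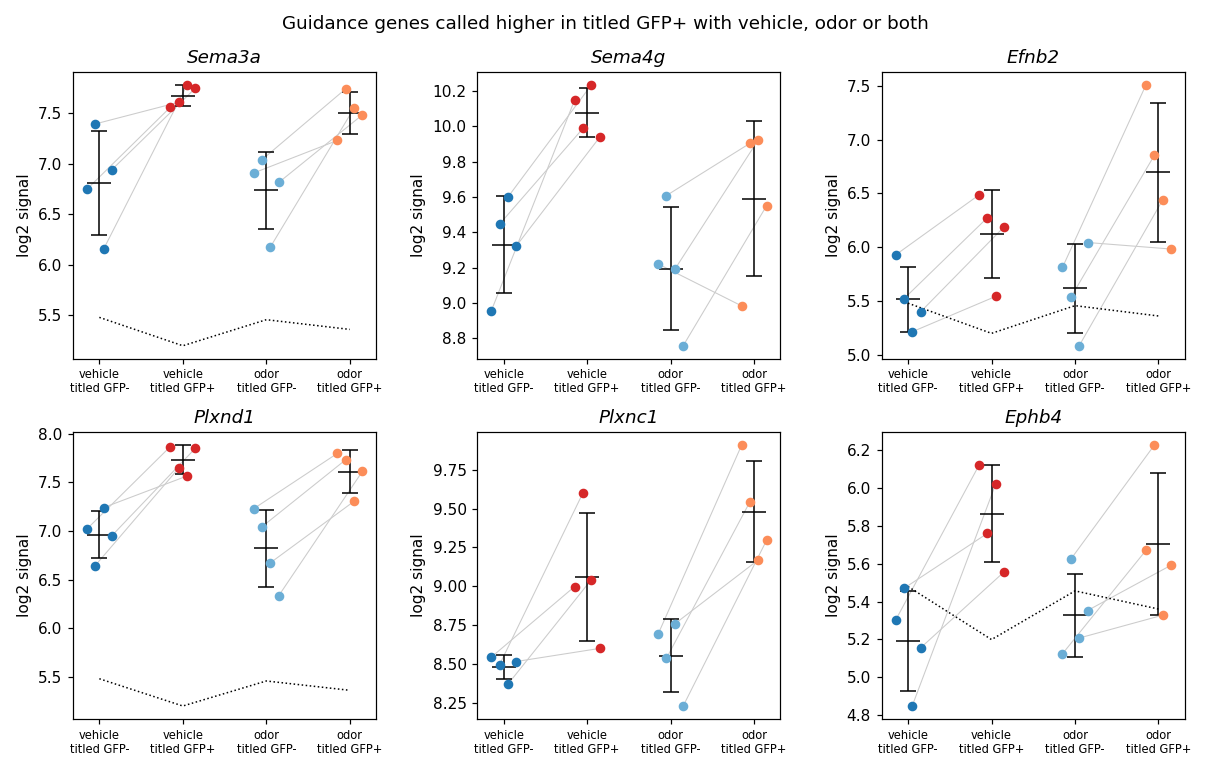
log2 signal of 6 guidance genes called higher in titled GFP+ with vehicle, odor or both (Sema3a, Sema4g, Efnb2, Plxnd1, Plxnc1, Ephb4) in each of the 16 libraries; points, lines and bars as in the plot of the lower genes, and dotted lines mark the median negative control where signals come near it. Ephb4 and Efnb2 straddle that level in titled GFP-, and 1 odor pool falls for Sema4g and for Efnb2; the axes do not start at 0.

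Plxnb3, a class B plexin, was lower in both exposures. It read 8.52, 8.90, 8.50 and 8.02 in titled GFP- with vehicle against 7.72, 8.20, 8.07 and 7.37 in titled GFP+, with overlap, and 8.69, 8.77, 8.30 and 8.06 against 7.49, 7.61, 7.47 and 7.25 with odor, without overlap. The differences were -0.65 (SE 0.21, adjusted p = 0.0441) and -0.9997 (adjusted p = 0.00222). The vehicle call held without 7 of the 16 libraries and was lost without each of the other 9 (adjusted p up to 0.146): vehicle titled GFP- replicates 1, 2 and 3, vehicle titled GFP+ replicates 1 and 4, odor titled GFP- replicate 3 and odor titled GFP+ replicates 1, 2 and 3. The odor call held without any of them. With the pool as a block, limma called Plxnb3 lower in both exposures (adjusted p = 0.00283 and 0.000137). It was lower in 8 of 8 pools, by -0.43 to -1.20. Plxnb1, the receptor of Sema4d, was lower with odor by -0.51 (SE 0.17, adjusted p = 0.0439). That call was lost without vehicle titled GFP- replicates 2 or 3, vehicle titled GFP+ replicate 1, odor titled GFP- replicates 1, 2 or 3 or odor titled GFP+ replicates 1, 2 or 4 (adjusted p up to 0.139). Under the pool block the odor call stood (adjusted p = 0.0412), and Plxnb1 was lower in 8 of 8 pools, by -0.04 to -0.94.

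The class A plexins carry the class 3 and class 6 signals in olfactory axons. Plxna3 read 11.76, 11.85, 11.18 and 11.59 in titled GFP- with vehicle against 10.76, 11.23, 10.72 and 10.62 in titled GFP+, lower by -0.76 (SE 0.25, adjusted p = 0.0429), with 1 library of each sort overlapping. It was lower in 8 of 8 pools by -0.353 to -0.998, and the pool block gave adjusted p = 0.00157 with vehicle and 0.0131 with odor, where it was not called without the block (-0.52, adjusted p = 0.155). The vehicle call was lost without vehicle titled GFP- replicates 1, 2 or 4, vehicle titled GFP+ replicates 1, 3 or 4, odor titled GFP- replicate 1 or odor titled GFP+ replicate 3 (adjusted p up to 0.114). Plxna1 and Plxna4 were not called: the vehicle differences were 0.06 (95% interval -0.50 to 0.63) and -0.28 (95% interval -0.64 to 0.07). Nrp2, the co-receptor of Sema3f, was -0.40 and, with odor, -0.46 (adjusted p = 0.257 and 0.176), lower in 8 of 8 pools, and called with odor under the pool block (adjusted p = 0.0488).

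The Robo receptors were not called between sorts on the deposited scale without the pool block. Robo2, which binds Slit1, had vehicle means of 11.59 ± 0.12 (SD, n = 4) in titled GFP- against 11.96 ± 0.18 in titled GFP+, without overlap, or 0.37 higher (adjusted p = 0.0909), and 0.24 with odor (adjusted p = 0.254), and was called higher in both when arrays were centred on mature neuron markers (0.61 and 0.56). Robo1 was 0.09 with vehicle and -0.58 with odor (adjusted p = 0.814 and 0.0634), and was called lower with odor with the pool as a block (adjusted p = 0.0391) and under median centring (-0.95). Among netrin receptors, Unc5b was -0.17 and, with odor, -0.26 (adjusted p = 0.405 and 0.188). Unc5a was called lower with odor (adjusted p = 0.0367), but its signal of 3.04 to 3.74 was not above the controls on any array, and no difference is given. Its call was lost without odor titled GFP- replicates 1, 2 or 3 or odor titled GFP+ replicates 1 or 4 (adjusted p up to 0.114).

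**Figure D4:**
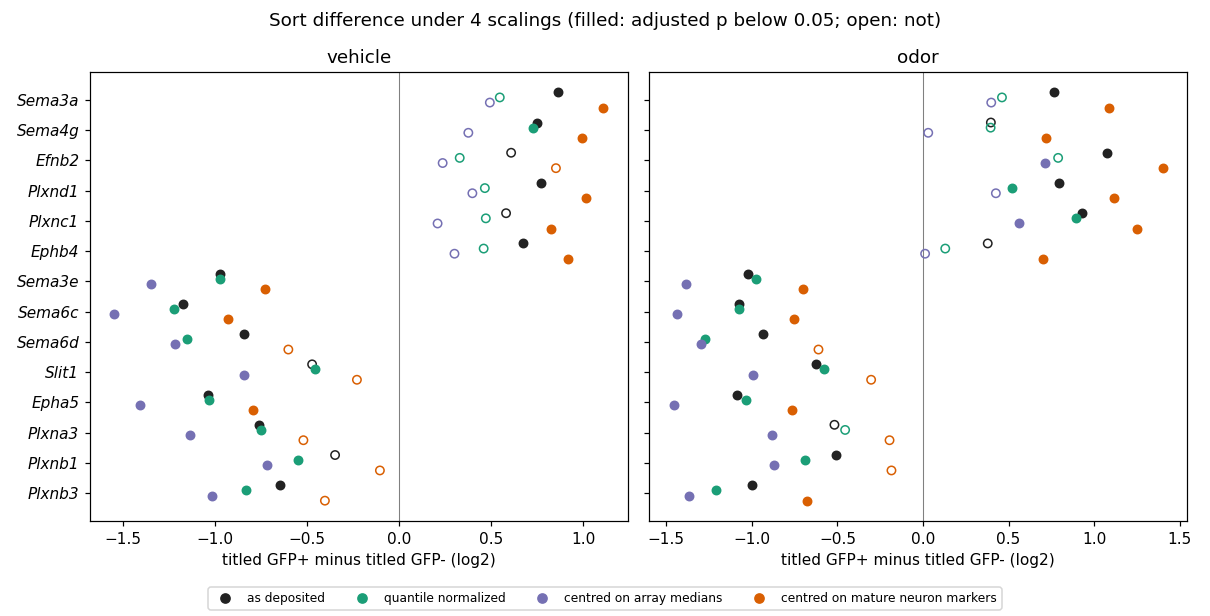
Sort difference (log2) of 14 guidance genes under 4 scalings of the arrays, with vehicle on the left and odor on the right; filled points passed an adjusted p of 0.05 in limma and open points did not. No plotted difference changes sign, Sema3e, Sema6c and Epha5 are filled throughout, and Ephb4 with odor runs from 0.01 under median centring to 0.70 under centring on mature neuron markers.

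Some known ligand and receptor pairs can be read side by side. Sema3e was lower (-0.97 and -1.02) and its receptor Plxnd1 higher (0.77 and 0.79) in titled GFP+ in both exposures. Unlike the Sema3e calls, those of Plxnd1 were lost under median centring. Slit1 was lower with odor (-0.63), while Robo2, at 0.24, was not called. Efnb2 was called higher with odor and Ephb4 with vehicle, and in the other exposure each was positive and not called (0.61 for Efnb2 and 0.38 for Ephb4). Epha5 was lower in both, while its ligands Efna3 and Efna5 were within 0.08 of 0. Other pairs shared a sign. Sema4d (-0.38 and, with odor, -0.55) and its receptor Plxnb1 (-0.35 and -0.51) were negative, with a call for Plxnb1 with odor alone. Sema6c, Sema6d and the class A plexin Plxna3 were called lower with vehicle, and Plxna3 was not called with odor (-0.52).

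Markers of several cell types also differed between the sorts. Fewer were called on other lists, such as 0 of 10 endothelial, 1 of 9 fibroblast and 1 of 6 horizontal basal cell markers with vehicle. The summed neutrophil signal with vehicle was 9.51 to 10.81 in titled GFP- against 18.76 to 19.21 in titled GFP+ (log2), with 12 of 12 markers higher in both exposures. Microvillar markers summed to 11.02 to 11.23 against 13.13 to 14.45, and progenitor and cell cycle markers to 7.51 to 7.73 against 10.996 to 12.11. Immature neuron markers, 8 of 12 higher with vehicle and 7 with odor, summed to 16.63 to 16.87 against 16.94 to 17.16. Mature neuron markers summed to 21.29 to 21.40 against 21.04 to 21.23. Of macrophage and monocyte markers 9 of 11 were higher with vehicle and 7 with odor. The part of these cells in the differences of Sema3a, Sema4g, Efnb2, Plxnd1, Plxnc1 and Ephb4, or of the lower genes, was not tested.

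Of 47 measured genes of signalling downstream of guidance receptors, 11 were higher and 1 lower with vehicle, and 11 and 3 with odor, against 10.2% and 7.16% of all probe sets with vehicle and 11% and 9.86% with odor. Their medians were 0.02 and 0.01, beside -0.13 and -0.14 over all probe sets. Dpysl3, a collapsin response mediator that carries semaphorin signals to the cytoskeleton, was higher by 3.54 (SE 0.26) with vehicle and 3.45 with odor. Ablim1, an actin-binding protein, was above the negative controls on 4 of 4 arrays of each titled GFP+ group and 0 of 4 of each titled GFP- group, so it was higher by at least 1.18 and 1.21. Mical1, which oxidises actin downstream of plexins, was higher by 1.82 and 1.66. Chn2, a Rac-inactivating protein of ephrin and semaphorin signalling, was above the controls on the same arrays and higher by at least 0.20 and 0.39. The largest adjusted p of these 4 with vehicle was 0.000596. Trio, a guanine nucleotide exchange factor, was lower with vehicle (-0.56, adjusted p = 0.0306) and 3 genes with odor: the adaptor gene Nck2 (-0.64, adjusted p = 0.0458), Dpysl2, another collapsin response mediator (-0.44, adjusted p = 0.0335), and Limk1, a kinase that acts on cofilin (-0.42, adjusted p = 0.0479).

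Of 34 measured co-receptors and members of other guidance families, 7 were higher and 2 lower with vehicle, and 7 and 1 with odor (medians -0.14 and -0.07), against the same shares of all probe sets. Plxdc2, which carries a plexin domain, was higher by 2.59 (SE 0.33, adjusted p = 1.37e-05). Ptprf, a receptor phosphatase of axons, was higher by 1.15 (adjusted p = 0.000365), and Met, which couples to class B plexins, by 1.11 (adjusted p = 0.039, with 1 of 4 titled GFP- libraries above the controls). Vegfa, which also binds neuropilins, was higher by 0.90 with vehicle and 1.52 with odor (adjusted p = 0.00583 and 3.88e-05). Nexn, an actin-binding protein, was lower by -0.76 and -0.77, and the adhesion protein gene Cntn2 was lower with vehicle (adjusted p = 0.00916), with 2 of 4 titled GFP- and 0 of 4 titled GFP+ libraries above the controls.

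Between odor and vehicle, 0 of the 64 guidance genes were called by limma in titled GFP+, where 0.00901% of all probe sets were. An unadjusted p under 0.05 was held by 6 of the 64, beside 1072 of all 22206 probe sets. In titled GFP- 0 were called, where 0.018% of all probe sets were. There 0 of the 64 had an unadjusted p under 0.05, beside 733 of all 22206. The interaction of odor and sort also called 0 of 64, against 0.0045% of all probe sets. For it 1 of the 64, Robo1, had an unadjusted p under 0.05, beside 653 of all 22206. The 3 counts of called guidance genes were 0 under every other setting that could be run, the block and each left-out library included. Median odor differences of the 64 genes were -0.05 in titled GFP+ and -0.01 in titled GFP-. Sema7a, which the symbol rule also matches, was left out beforehand, so these counts say nothing about its odor response.

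Robo1, a Slit receptor, lay nearest the threshold in titled GFP+. It read 10.75, 10.92, 11.13 and 10.76 with vehicle and 9.53, 10.34, 10.21 and 10.36 with odor, and every odor library was below every vehicle library. The difference was -0.78 (SE 0.21, unadjusted p = 0.00205, adjusted p = 0.968). In titled GFP- it was -0.11, and the interaction of -0.67 had an unadjusted p of 0.0403 and an adjusted p of 1. Robo2 in titled GFP+ was -0.35 (adjusted p = 0.968). Plxnc1 was 0.42 (95% interval 0.0029 to 0.84, not adjusted for the number of genes) and was not called (adjusted p = 0.968). Without overlap 3 of 64 genes were lower with odor in titled GFP+ (4.69%, against 1.36% of all probe sets), Robo1, Sema4g and Unc5a, and 0 were higher (against 1.27%). In titled GFP- Sema5b, not above the controls on any array, came nearest (adjusted p = 1), Unc5b was the 1 gene lower without overlap (-0.18, against 0.982% of all probe sets), and 0 were higher without overlap (against 1.09%).

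**Figure D5:**
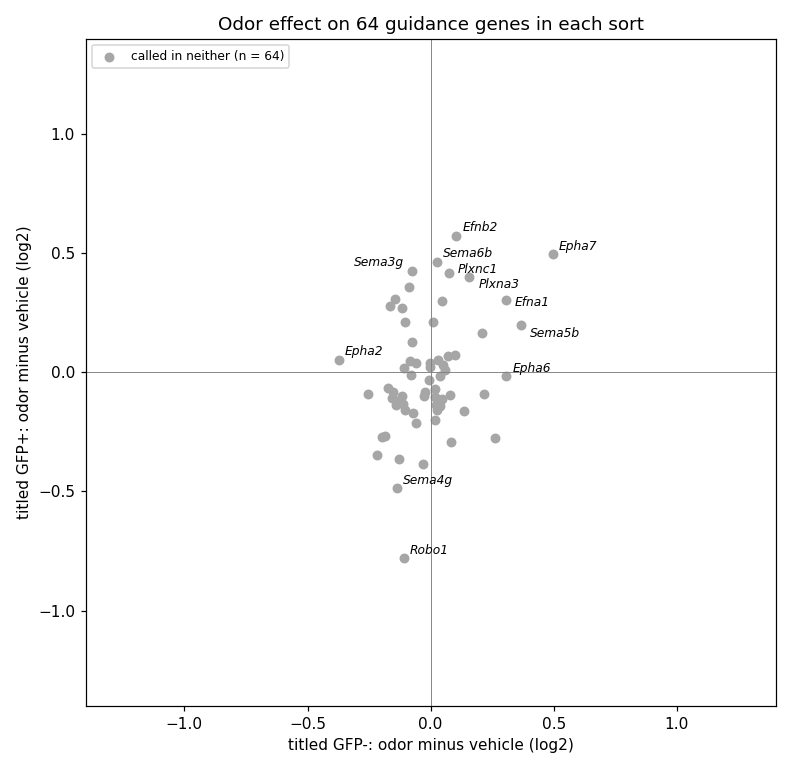
Odor minus vehicle (log2) of the 64 guidance genes in titled GFP- (x axis) and titled GFP+ (y axis); each point is 1 gene, named where the difference passes 0.3 in titled GFP- or 0.4 in titled GFP+. Robo1 lies lowest at -0.78 in titled GFP+ and -0.11 in titled GFP-, Epha7 is at 0.50 in both, and no gene passed an adjusted p of 0.05 in either sort.

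With the pool as a block, which uses that the 2 libraries of a pool come from the same 3 mice, calls between sorts grew. With vehicle 14 genes were called, 6 higher and 8 lower, which are the 11 above with Epha7, Plxnc1 and Slit1. With odor 21 were called, 5 higher and 16 lower: the 13 above with Efna2, Efnb3, Epha3, Epha7, Nrp2, Plxna3, Robo1 and Sema4d, all lower, of which Epha3 was not above the negative controls on any array. The background under this block was 21.1% of all probe sets with vehicle and 26.1% with odor.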

How the data were processed

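Per the labels' protocols, cells were sorted from olfactory mucosa and biotinylated cRNA was put on Clariom S arrays. The log2 signals deposited by the authors, 1 per probe set on each array, came from Affymetrix Expression Console, as the submitters' processing notes say. Its version, background correction, normalization and the array build were not given in the sources used here. Of 28846 probe sets, 6640 controls (5222 negative) were left out, which leaves 22206, of which 19572 have 1 symbol, 0 several and 2634 none. All 64 guidance genes matched RefSeq GRCm38.p6 by Entrez identifier, and each has 1 row.

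Groups follow the sample titles. limma 3.58.1 in R 4.3.3 fitted the 4 group means (lmFit, then eBayes without trend, 12 residual degrees of freedom, prior 4.49), with Benjamini-Hochberg adjustment over all 22206 probe sets and a threshold of 0.05. The script was tested on simulated data. Background is each array's median negative control, 5.30 to 5.67 in titled GFP- and 5.15 to 5.56 in titled GFP+, and the number of arrays limits precision. Samples of 1 pool come from the same mice and pair. Their deviations correlated at 0.16 to 0.40, a range close to that of odor and vehicle samples of 1 replicate number (0.07 to 0.41). Arrays held identical values in 0 pairs.

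The genes and lists were chosen with earlier results of these data known. Named genes are those called in any comparison, 18 measured genes of a list of 19 for olfactory axon targeting, the gene with the highest mean of each family, the gene nearest the threshold in the odor comparisons, up to 4 called genes of each pathway list, and S100a5. Cntn2, Nexn, Nck2, Dpysl2, Limk1, Trio, the basal, glial, fibroblast, respiratory and endothelial markers given singly and genes named for detection or the pool block alone were chosen after their values were seen. Alternatives were other scalings, a pool block, a filter on low signals, a floor, a variance trend, fewer groups, subsets of the pools, and each library left out.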

Additional observations from a re-analysis of the deposited data

Results flagged for a closer look

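In 144 groups of 4 libraries (36 named guidance genes in 4 groups), 3 libraries stood apart from the other 3 of their group by Dixon's test, which chance alone passes in about 5% of groups. Sema6a, a membrane semaphorin, read 12.35 in odor titled GFP+ replicate 1 and 13.07 to 13.13 in the others. Plxna1, a class A plexin, read 14.15 in odor titled GFP+ replicate 2 and 13.32 to 13.42 in the others. Ntn5, a netrin not above the negative controls on any array, read 4.39 in vehicle titled GFP+ replicate 1 and 4.69 to 4.74 in the others. No cause was tested.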

How the results depend on the processing

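With vehicle, the 5 higher and 6 lower guidance genes became 3 and 10 after quantile normalization, 0 and 35 with arrays centred on their medians, 8 and 3 with arrays centred on mature neuron markers, 1 and 3 in pools 1 and 2, and 2 and 2 in pools 3 and 4, and 3 were higher with values raised to the negative controls. With odor, the 5 higher became 3, 2, 11, 3 and 1 in the same order of the first 5 settings, and the 8 lower became 32 with median centring, 4 with mature neuron centring, 3 in pools 3 and 4 and 16 with a replicate block for the pool. The block lost 0 calls in either exposure. Leaving out 1 library at a time gave 3 to 6 higher and 4 to 7 lower with vehicle and 2 to 5 higher and 6 to 11 lower with odor. The fewer calls in either subset of the pools come with fewer samples, and the cause of the other moves was not tested. Over all probe sets median centring called 1762 higher and 13868 lower with vehicle, mature neuron centring 2936 and 547. The share of all probe sets called with vehicle was 23%, 70.4%, 15.7%, 11.3% and 9.38% in the same order of settings. With values raised to the controls it was 13.6%. With odor the shares were 25.4%, 70%, 19.6%, 13.9% and 8.96%, and 26.1% with the block. For single left-out libraries that share was not computed.

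Epha4 turned to -0.26 with vehicle and -0.093 with odor when values were raised to the negative controls, which is the difference of the controls themselves, and Efna5 with odor turned to -0.29 under median centring. Without single libraries Slit1 and Plxnc1 passed with vehicle in 4 of 16 fits each, and with odor Robo1 in 2 and Epha7, Efnb3, Sema4g, Plxna3 and Sema4d in 1 each. For odor and vehicle samples of 1 replicate number the titles give only the number in common, and their deviations correlated at 0.07 to 0.41. Whether they also shared a run was not tested. With that number as a block the odor comparisons called 0 guidance genes, as without it. A mean over several rows of a gene was not run, since each guidance gene has 1 row. Of the 64 genes 20 were never above the negative controls, so their differences are bounds at most.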

Other observations

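Single genes of the basal, glial, stromal and respiratory marker lists were higher in the libraries titled GFP+. Of 6 horizontal basal cell markers 1 was called higher with vehicle and 2 with odor. The summed signal of that list (log2) was 7.02 to 7.84 in titled GFP- and 10.49 to 11.53 in titled GFP+ with vehicle, and 7.85 to 8.75 against 10.39 to 12.23 with odor. Cd44, an adhesion receptor that many cell types make, leucocytes among them, was higher by 5.14 and 3.71, while the basal markers Krt5, Trp63, Icam1 and Egfr were not above the negative controls on any array. Of 8 ensheathing glia markers 2 were higher in each exposure, and the list summed to 11.81 to 14.33 against 15.77 to 16.004 with vehicle. Apoe, which macrophages also make, was higher by 2.40 and 2.13. Sox10 was called higher in both exposures by limma (adjusted p = 0.0471 and 0.00374), and no difference is given. It was above the controls on 2 of 4 titled GFP+ libraries with vehicle, 3 of 4 with odor, and 0 of 4 titled GFP- libraries in each. S100b (-0.05 and, with odor, -0.25) and Fabp7 (0.12 and 0.06), above the controls on all 16 arrays, were not called. Npy, Foxd3, Frzb and Gfap were not above the controls on any array. The median difference of the glial list was 0.03 with vehicle and -0.15 with odor. Of 9 fibroblast markers 1 was higher in each exposure, Dcn (1.25 and 1.23), and the list summed to 7.80 to 8.29 against 8.27 to 8.55 with vehicle. Of 7 genes on the respiratory and ciliated list Scgb1c1 (4.04 and 4.29) and Krt7 (1.22 and 1.39) were higher in both exposures and Tekt1 lower with odor (-0.74). Sec14l3 (0.85 and 0.87) was not called, Dnah5 was above the controls on 1 of 16 arrays, and Scgb1a1 and Reg3g on none. Which cells made Scgb1c1 was not tested. The part of these cells in the differences of the guidance genes was not tested. With odor, the exposure in which Efnb2 was called, the endothelial markers Pecam1 (adjusted p = 0.0454) and Tek (adjusted p = 0.0302) were called higher. Pecam1 was above the controls on 3 of 4 titled GFP+ and 0 of 4 titled GFP- libraries, and Tek on no array. Vwf was lower (-0.51, adjusted p = 0.0218). The part of endothelial cells in the Efnb2 call was not tested.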
